A study of Homo sapiens with 4 samples.

Results

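Glutamine, asparagine and proline metabolism was followed through a list of 9 genes, GLS2, GLUD1, GLUL, GOT1, GOT2, ASNS, GPT2, PYCR1 and ALDH18A1. Of these, 6 had a probe set annotated to 1 gene symbol and were measured, out of 18417 genes measured in the same way. GLS2, GLUD1 and GPT2 were not analysed here. A gene with several such probe sets was represented by its brightest, judged by the mean of all 4 arrays. The cells were MiaPaCa2, an established human pancreatic ductal adenocarcinoma line, treated for 24 h with LY101-4B at 50 µM (2 arrays) or with vehicle (2 arrays), and the series' design calls the arrays of a group biological replicates. The series concerns sensitivity to LY101-4B, which its title calls an E2F inhibitor. One protocol field gives LY101-4D at 25 µM instead, and the titles and agent labels were followed.

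Glutamine supplies cells with nitrogen as well as carbon. Glutaminases such as GLS2 turn it into glutamate, glutamate dehydrogenase (GLUD1) or the aminotransferases GOT1, GOT2 and GPT2 turn glutamate into 2-oxoglutarate, and glutamine synthetase (GLUL) runs the first step backwards. Aspartate made by GOT1 in the cytosol or GOT2 in mitochondria is the backbone that asparagine synthetase (ASNS) amidates with nitrogen from glutamine, while ALDH18A1 and PYCR1 turn glutamate into proline.

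Expression was read on Human Gene ST arrays as log2 RMA values, in which a difference of 1 is a doubling of signal relative to the bulk of probe sets. The column medians lay between 5.88 and 5.97. Replicate arrays correlated at r = 0.994 for LY101-4B and 0.997 for vehicle over 21214 gene-annotated probe sets, against 0.978 to 0.981 between groups. The epithelial keratin genes KRT8 and KRT18 and the mesenchymal gene VIM all read above 11.8 on every array. A dimmer KRT18 probe set averaged 11.28 with LY101-4B and 11.75 with vehicle. The epithelial genes EPCAM and CDH1 read below 4.7 on every array. KRT19 averaged 9.13 with LY101-4B and 9.22 with vehicle, and KRT7 6.08 and 5.87. Of the other mesenchymal genes, ZEB1 averaged 7.86 with LY101-4B and 7.81 with vehicle, and CDH2 4.69 and 4.80. Of the 6 ductal and epithelial genes 2, KRT8 (-0.84, limma adjusted p 0.0037) and KRT18 (-0.57, adjusted p 0.011), lay lower with LY101-4B, and the summed signal of the 6 was 13.24 to 13.32 log2 units with LY101-4B, against 13.90 to 13.95 with vehicle. Of the marker genes of acinar, endocrine and leukocyte cells, 0 of 9 measured were called by limma (0 also at an unadjusted p under 0.05), and among 4 fibroblast genes 1, COL3A1, lay lower with LY101-4B. The summed signal of the fibroblast genes was 7.74 to 7.78 log2 units with LY101-4B, against 7.86 to 7.99 with vehicle, and the part of these genes in the results was not tested.

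Among the 6 measured genes, ASNS, GOT1 and PYCR1 rose with LY101-4B, GOT2 fell, and GLUL and ALDH18A1 did not pass the test. A gene was called at a limma adjusted p under 0.05, taken over all 21214 probe sets. By that rule 8.88% of all genes were higher and 10.7% lower, so 3 of 6 higher and 1 of 6 lower stand beside those shares. The LY101-4B and vehicle arrays did not overlap for any of the 6, as was so for 58% of all genes. The median difference of the 6 was 0.53 log2 units, against 0.00 (0.0047) over all genes. In RNA from whole cultures, fewer cells of a type and less RNA per cell cannot be told apart.

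**Figure D1:**
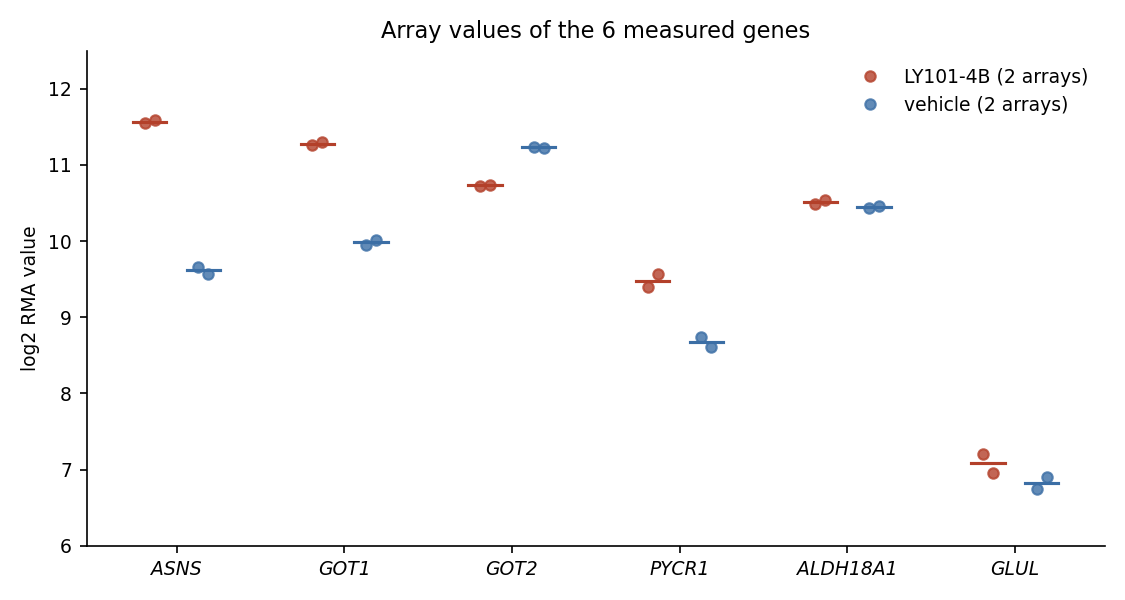
Log2 RMA value (vertical axis) of the 6 measured genes on each array, with LY101-4B arrays in red and vehicle arrays in blue; dots are arrays and short lines are group means. ASNS, GOT1 and PYCR1 sit higher on both LY101-4B arrays, GOT2 sits lower, and ALDH18A1 and GLUL differ little between groups.

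ASNS, the only enzyme known to make asparagine in human cells, changed most. It read 11.55 and 11.59 log2 units on the LY101-4B arrays, against 9.66 and 9.57 on the vehicle arrays. The distance between groups was many times that between replicates, with an SD of 0.02 for LY101-4B and 0.06 for vehicle (n = 2 each). The difference was 1.95 ± 0.09 log2 units (SE; 95% interval 1.74 to 2.17), a 3.88-fold rise with a limma adjusted p of 0.00043, and ASNS ranked 41 among the rises of 18417 genes. Across 12 other ways of fitting the data the difference stayed between 1.90 and 2.06 and passed in each.

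The ASNS promoter is shown because, in human cells, its best-studied control is by ATF4 at nutrient-sensing elements just upstream of the start. RefSeq (GRCh38.p14) gives 2 start windows for ASNS, and the 250 bases before the first (chr7:97872409-97872658, minus strand, written 5′ to 3′) are given here, with capitals marking TGATGNAA, the core of C/EBP-ATF composite elements, and GTTACA, the core of a second ASNS element.
ASNS: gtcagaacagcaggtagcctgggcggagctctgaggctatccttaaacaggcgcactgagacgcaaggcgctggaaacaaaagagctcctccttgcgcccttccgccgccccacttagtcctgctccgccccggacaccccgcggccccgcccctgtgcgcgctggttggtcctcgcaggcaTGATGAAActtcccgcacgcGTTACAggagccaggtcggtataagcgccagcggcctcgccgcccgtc
TGATGNAA matched from position -68 to -61 and GTTACA from -48 to -43, counted back from the base before the start as -1. The letters TGATGNAA were found on either strand in 3.62% of 35116 RefSeq windows of 300 bases (250 before and 50 after a start), GTTACA in 6.66%, and both in 0.498%. The second ASNS window held neither. A match describes letters in a window and is not evidence of binding.

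GOT1 encodes the aspartate aminotransferase of the cytosol and GOT2 that of mitochondria, and they moved in opposite directions. GOT1 read 11.27 and 11.30 with LY101-4B, against 9.95 and 10.02 with vehicle. GOT1 thus lay 1.30 ± 0.09 log2 units higher (SE; 2.46-fold, 95% interval 1.08 to 1.51, limma adjusted p 0.00093), and it passed under each of 12 alternatives. For GOT2 the values were 10.72 and 10.74 with LY101-4B and 11.24 and 11.23 with vehicle, the tightest replicates of the 6 genes. GOT2 fell by 0.50 log2 units (SE 0.08; 1.42-fold, limma adjusted p 0.012). This call was lost without vehicle replicate 1 (-0.50) or vehicle replicate 2 (-0.50), although the difference hardly moved. The call was kept without LY101-4B replicate 1 (-0.49) or LY101-4B replicate 2 (-0.51). Why these fits differed in the call was not tested.

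Within each array, the GOT1 value minus the GOT2 value was 0.55 and 0.55 with LY101-4B, against -1.28 and -1.21 with vehicle. These within-array figures compare differently designed probe sets, so only their change has a meaning. The change of GOT1 exceeded that of GOT2 by 1.80 log2 units, with no overlap between groups. An exact permutation test over the 6 splits of 4 arrays gave a 2-sided p of 0.333, which is the smallest that 2 against 2 arrays can give, so the design cannot reach a p of 0.05.

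The 250 bases upstream of both aminotransferase genes are shown for that contrast (RefSeq, GRCh38.p14, minus strand, 5′ to 3′; GOT1 at chr10:99430625-99430874 and GOT2 at chr16:58734317-58734566). Capitals in GOT1 mark TTGCATCA, which is TGATGCAA on the other strand.
GOT1: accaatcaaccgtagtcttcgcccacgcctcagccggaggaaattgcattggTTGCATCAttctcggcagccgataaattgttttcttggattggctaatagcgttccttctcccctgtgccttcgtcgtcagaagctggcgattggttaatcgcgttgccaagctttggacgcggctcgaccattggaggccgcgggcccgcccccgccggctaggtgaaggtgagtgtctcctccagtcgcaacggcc
GOT2: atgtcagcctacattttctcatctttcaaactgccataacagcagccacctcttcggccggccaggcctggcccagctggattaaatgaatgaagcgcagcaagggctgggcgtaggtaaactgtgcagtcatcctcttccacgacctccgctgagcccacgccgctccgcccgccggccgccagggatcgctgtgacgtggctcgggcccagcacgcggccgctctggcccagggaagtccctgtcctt
In GOT1 the match lay from -198 to -191, farther from the start than in ASNS. The GOT2 window held neither TGATGNAA nor GTTACA, nor did those of GLUL, ALDH18A1, GLS2 or GLUD1, so 2 of 7 of the named genes with a window held TGATGNAA, against 4.46% of 27305 genes with a window. No entry was used for PYCR1 or GPT2.

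Proline is made from glutamate by ALDH18A1, the mitochondrial pyrroline-5-carboxylate synthase that commits glutamate to the route, and PYCR1, the mitochondrial reductase of its last step. PYCR1 read 9.39 and 9.57 with LY101-4B, against 8.73 and 8.61 with vehicle. It rose by 0.81 ± 0.11 log2 units (SE; 1.75-fold, 95% interval 0.55 to 1.07, limma adjusted p 0.0055) and passed under each of 12 alternatives, at an adjusted p up to 0.0399. ALDH18A1 read 10.48 and 10.53 with LY101-4B, against 10.44 and 10.46 with vehicle. Its groups were apart by less than 0.1 log2 units, and the difference of 0.06 ± 0.09 (SE) had a 95% interval of -0.15 to 0.27 and a limma adjusted p of 0.717. A change of ALDH18A1 larger than 0.27 log2 units in either direction thus lay outside that interval, whereas the rise of PYCR1 lay well above it. Whether the changes of the 2 genes differ was not tested.

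GLUL, which makes glutamine from glutamate and ammonia, had 2 single-symbol probe sets of nearly equal brightness, and they gave different calls. The brighter read 7.20 and 6.96 with LY101-4B, against 6.75 and 6.90 with vehicle. Its replicates were the most spread of the 6 genes, and the difference of 0.26 ± 0.12 log2 units (SE; 95% interval -0.04 to 0.55) did not pass (limma adjusted p 0.207). The other read 7.09 and 7.34 with LY101-4B, against 6.39 and 6.73 with vehicle. That probe set rose by 0.65 ± 0.15 log2 units (SE; 1.57-fold, limma adjusted p 0.0328). With the mean of both probe sets standing for the gene, GLUL rose by 0.45 log2 units at an adjusted p of 0.0362, so its call depended on the probe set. RefSeq lists several GLUL pseudogenes, and whether either probe set also reads one was not tested.

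**Figure D2:**
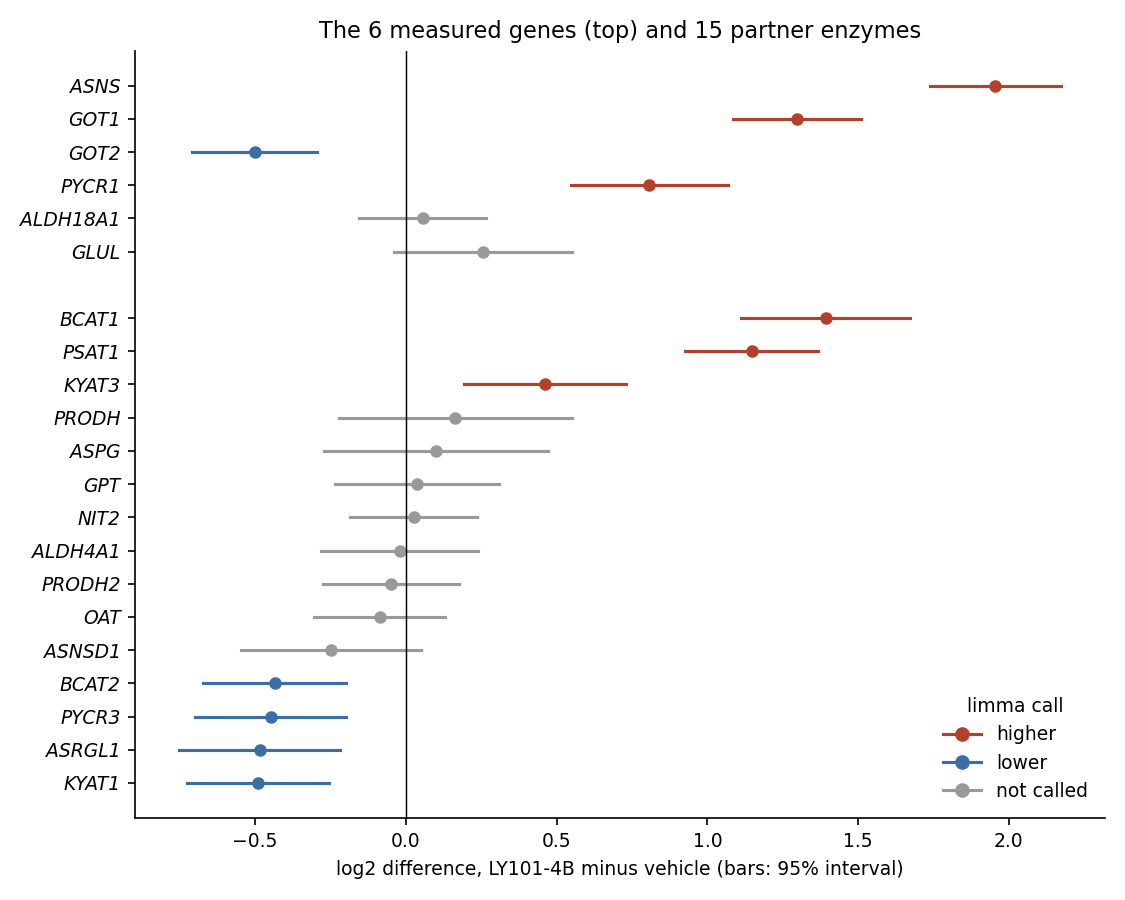
Log2 difference, LY101-4B minus vehicle (horizontal axis, dots), with its 95% interval (bars) for the 6 measured genes and, below the gap, 15 partner enzymes ordered by difference; colours give the limma call. ASNS at 1.95 lies farthest to the right, and GOT2 lies among the lowest values near -0.50.

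The 6 genes were set beside enzymes that use the same substrates, in particular the other aminotransferases that draw on glutamate and the other enzymes of proline and asparagine. Of 15 measured partner enzymes 3 rose, 4 fell and 8 did not pass, with a median of -0.02 log2 units. Over all genes 8.88% were higher and 10.7% lower. BCAT1, the cytosolic branched-chain aminotransferase (1.39), PSAT1, the phosphoserine aminotransferase (1.15), and KYAT3, a glutamine transaminase (0.46), rose. KYAT1 (-0.49), ASRGL1, an asparaginase-like enzyme (-0.48), PYCR3, the cytosolic counterpart of PYCR1 (-0.45), and BCAT2, the mitochondrial branched-chain aminotransferase (-0.44), fell. The enzymes that break proline down, PRODH (0.16), PRODH2 (-0.05) and ALDH4A1 (-0.02), did not pass. PRODH and PRODH2 averaged 5.31 and 5.08 over the 4 arrays, below the column medians of 5.88 to 5.97. Changes in signals this dim are not resolved here. Neither OAT, which links ornithine to proline (-0.09), nor GPT, the other alanine aminotransferase (0.04), passed. NIT2 (0.03), ASPG (0.10) and ASNSD1 (-0.25) did not pass either. All 4 falls were lost when vehicle replicate 1 (adjusted p 0.107 to 0.217), vehicle replicate 2 (0.102 to 0.182) or LY101-4B replicate 1 (0.0538 to 0.0779) was left out, that of BCAT2 also without LY101-4B replicate 2 (0.0709). The rise of KYAT3 did not pass without vehicle replicate 1 (0.2), without vehicle replicate 2 (0.134) or without LY101-4B replicate 2 (0.07). With all rows of the deposited file in the fit, KYAT3 (0.0966) and the 4 falls (0.0629 to 0.0876) were lost too, and BCAT2 was also lost under cyclic loess (0.0717).

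Some other pairs of genes for the same reaction were opposed as GOT1 and GOT2 were, and some were not. Those described here were picked after their values were seen, so they are a description without a test. BCAT1 read 6.75 and 6.99 with LY101-4B against 5.52 and 5.43 with vehicle. Its vehicle values lay below the column medians of 5.88 to 5.97, so the size of its rise is less certain. BCAT2 read 8.81 and 8.72 with LY101-4B against 9.27 and 9.13 with vehicle. PYCR3 read 6.89 and 7.08 with LY101-4B, against 7.45 and 7.41 with vehicle, while PYCR1 rose. The change of BCAT1 exceeded that of BCAT2 by 1.83 log2 units and the change of PYCR1 exceeded that of PYCR3 by 1.26. By contrast, CTPS1 (-1.14) and CTPS2 (-0.50) both fell, as did the carrier genes SLC25A12 and SLC25A13. The calls of CTPS2 and SLC25A13 were lost when either vehicle array was left out. That of SLC25A13 was also lost with all rows of the deposited file in the fit. The cytosolic and mitochondrial malate dehydrogenase genes MDH1 (-0.32) and MDH2 (-0.20) did not pass.

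**Figure D3:**
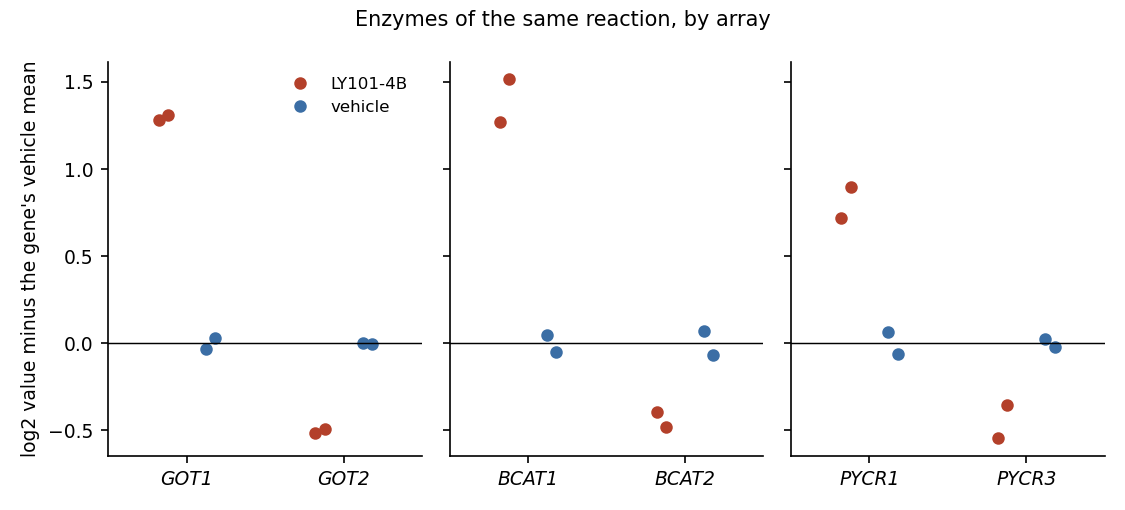
Log2 value minus the gene's vehicle mean (vertical axis) on each array for GOT1 and GOT2, BCAT1 and BCAT2, and PYCR1 and PYCR3; red dots are LY101-4B arrays and blue dots vehicle arrays. In each pair the first gene lies above its vehicle arrays with LY101-4B and the second below them.

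GOT1 and GOT2 form the malate-aspartate shuttle with malate dehydrogenases and mitochondrial carriers. Of 8 genes of the shuttle and of mitochondrial glutamate and 2-oxoglutarate handling, 5 fell with LY101-4B and 0 rose by limma. At an unadjusted p under 0.05, 0 rose too. The shares over all genes were 10.7% lower and 8.88% higher. The list had a median of -0.43 log2 units. The aspartate-glutamate carrier SLC25A12 fell most, to 7.43 and 7.76 with LY101-4B, against 8.63 and 8.57 with vehicle. The glutamate carrier SLC25A22 fell by 0.88 log2 units, OGDH of the 2-oxoglutarate dehydrogenase complex fell by 0.51 and the 2-oxoglutarate carrier SLC25A11 fell by 0.45. GOT2, at -0.50, lay within the range of these genes and GOT1 above it. Without vehicle replicate 1 and without vehicle replicate 2 the list had 2 falls each, OGDH (adjusted p 0.101 and 0.0954) and SLC25A11 (0.149 and 0.151) being among those lost, and SLC25A11 also missed the threshold when LY101-4B replicate 1 was left out (0.0623).

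ASNS takes its nitrogen from the amide of glutamine, as do the glutamine amidotransferases of nucleotide, NAD and hexosamine synthesis. Of 9 measured genes on that list 6 fell and 1 rose, beside 10.7% lower and 8.88% higher over all genes. The list had a median of -0.50 log2 units. One of the falls was that of CPS1 (-0.52), a related mitochondrial enzyme that takes free ammonia in place of the glutamine amide, and without it 5 of 8 fell and 1 rose. ASNS thus moved against most of them. CTPS1, which makes CTP, lay 1.14 log2 units lower (-1.14), the purine enzyme PFAS 0.84 lower (-0.84) and CAD, which starts pyrimidine synthesis, 0.65 lower (-0.65). GFPT1, the entry enzyme of hexosamine synthesis, was the one that rose, to 11.46 and 11.52 with LY101-4B, against 9.59 and 9.57 with vehicle (1.91 ± 0.09, SE, limma adjusted p 0.00043). Without vehicle replicate 1 the falls numbered 3 and without vehicle replicate 2 they numbered 2, when CAD reached an adjusted p of 0.0544.

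Around arginine and ornithine, which meet proline and aspartate through OAT and the argininosuccinate enzymes, 2 of 8 genes rose, 1 fell and 5 did not pass. Beside these counts, 8.88% of all genes were higher and 10.7% lower. Among the 5 that did not pass, ARG1 and OTC averaged 4.12 and 4.28 over the 4 arrays. Both lay below the column medians of 5.88 to 5.97, where changes are not resolved. ARG2, the mitochondrial arginase that yields ornithine, rose by 1.86 log2 units and ASS1, which consumes aspartate, by 1.56. ODC1, which turns ornithine into putrescine, lay lower (-0.38), a call that was lost whichever array was left out (adjusted p 0.161 without vehicle replicate 1, 0.223 without vehicle replicate 2, 0.0661 without LY101-4B replicate 1 and 0.0545 without LY101-4B replicate 2).

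**Figure D4:**
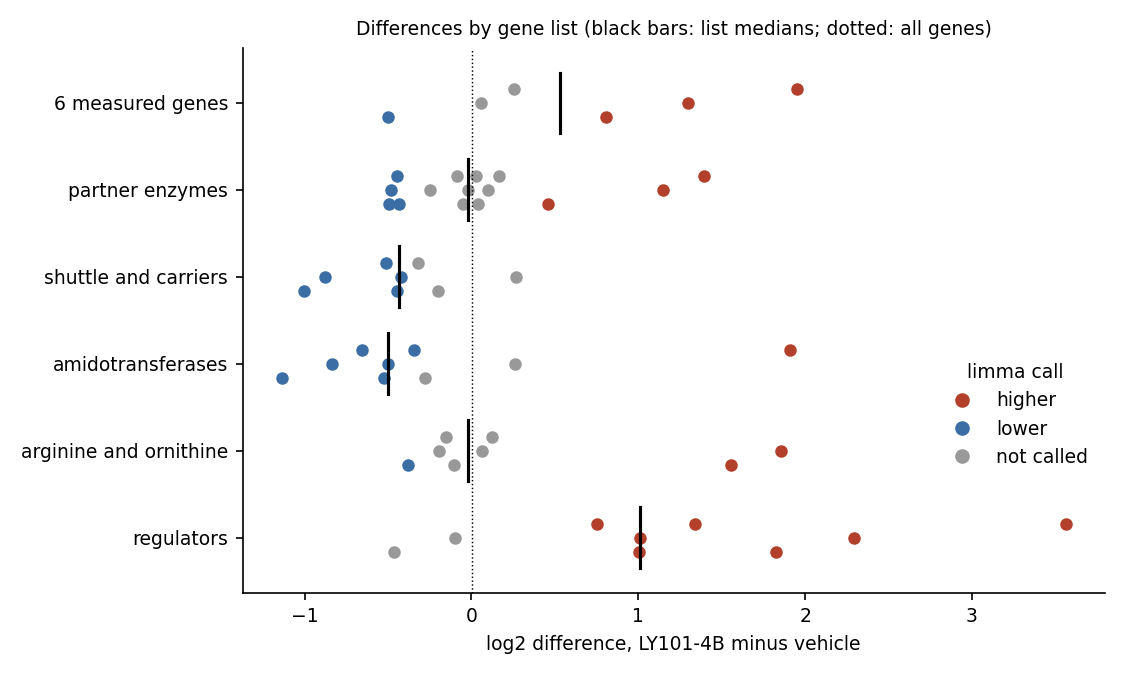
Log2 difference, LY101-4B minus vehicle (horizontal axis), of every measured gene in 6 lists, 1 dot a gene coloured by its limma call; black bars are list medians and the dotted line is the median of all genes. The shuttle and amidotransferase lists have medians of -0.43 and -0.50, and the 6 measured genes one of 0.53.

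Transcription factors and other regulators known to act on these genes or on their stress response were read on the same arrays. Of 9 measured regulators 7 rose and 0 fell by limma, beside 8.88% higher and 10.7% lower over all genes. At an unadjusted p under 0.05, 1 regulator fell. The largest rises were those of DDIT3, which encodes CHOP (3.56 log2 units), the ATF4 feedback gene TRIB3 (2.29), ATF3 (1.83) and CEBPB (1.34). ATF4 was named after its values were seen, as the known activator of ASNS. Its brighter probe set read 11.69 and 11.70 with LY101-4B, against 10.69 and 10.70 with vehicle (1.01 ± 0.08, SE). A second, dimmer ATF4 probe set rose by 0.71 log2 units (limma adjusted p 0.0081). With the mean of both probe sets standing for ATF4, the rise was 0.86. MYC, known to raise glutaminase and proline synthesis genes and also named after its values were seen, had a difference of -0.10 (limma adjusted p 0.498), or 0.0047 under cyclic loess. In the lists of partner enzymes, shuttle genes, amidotransferases, arginine genes and regulators, 4 of 44 genes with a RefSeq window held TGATGNAA. The matches are shown in capitals with 10 bases on each side, in the direction in which the motif reads (GRCh38.p14; BCAT1 at chr12:24949132-24949159, minus strand; CEBPG at chr19:33374061-33374088, ATF3 at chr1:212565206-212565233 and SLC25A11 at chr17:4940100-4940127, plus strand).
BCAT1: gtcttcctgcTGATGCAAtccgctaggt
CEBPG: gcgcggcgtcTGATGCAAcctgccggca
ATF3: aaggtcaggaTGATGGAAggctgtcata
SLC25A11: aggaggagctTGATGGAAgcgtgcgaga
BCAT1, ATF3 and CEBPG, a partner of ATF4 (1.01), rose, whereas SLC25A11 fell, so a match went with either direction. TGATGNAA was held by 4.46% of all genes with a window. GTTACA was held by 5 of 44 of these genes (8.07% of all genes with a window), namely BCAT1, ASS1 and TRIB3, which rose, CTPS1, which fell, and NIT2, which did not pass.

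The array pattern of ASNS was matched to all other genes by the Euclidean distance between their 4 log2 values, each gene centred on its own mean. The 5 nearest were the autophagy receptor gene SQSTM1 (distance 0.06 log2 units), GTPBP2, a GTPase gene of ribosome rescue (0.07), GFPT1 (0.07), FICD, an endoplasmic reticulum AMPylase gene (0.10), and ARG2 (0.11). Over 4 arrays such a distance mainly reflects a like size of difference, which ran from 1.86 for ARG2 to 2.02 for GTPBP2 beside 1.95 for ASNS. Of these 5 genes, GFPT1 and ARG2 also belong to the lists above.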

How the data were processed

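The deposited table held 33297 rows of log2 expression values on 4 arrays. The submitters' processing notes credit them to RMA, which corrects background, quantile-normalises and summarises probes. Its version and any filter are not stated in the labels or the file, and detection calls were not used here. After quantile normalisation a change is relative to most other probe sets, and low signals show compressed changes. Array number limits the precision. Genes came from the platform annotation: 19460 probe sets had 1 symbol, 1754 several and 12083 none; the 21214 with a symbol were tested and only single-symbol ones named. RefSeq names and promoter windows are from GRCh38.p14, with 0 symbols updated.

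A linear model with treatment as its only term was fitted with limma 3.58.1 in R 4.3.3 (lmFit, eBayes), with 2-sided p-values adjusted by Benjamini-Hochberg over all tested probe sets. There were 2 residual degrees of freedom, and the script was tested on simulated data. With 200 of 21214 simulated probe sets changed, a mean of 2.4% of changes of 0.5 log2 units were recovered. For changes of 1 the mean was 81.6%, and for changes of 2 it was 98.8%. More probe sets than that were called in the data, so these shares need not hold for them. Differences are LY101-4B minus vehicle with moderated SE, and intervals are 95%.

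The genes and lists were chosen with earlier results of these data known, so no list is independent evidence. Named were every measured member and partner enzyme, up to 4 called genes of each other list with the largest change (or, where none was called, the 2 with the smallest p), and the 5 genes nearest to the member with the largest change. Of 5 gene pairs planned, only GOT1 and GOT2 were both measured, and only that pair was tested. Alternatives were all rows, the brighter 50%, cyclic loess, median centring, an intensity trend, a robust prior, the mean of a gene's probe sets, a replicate block and each array left out.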

Additional observations from a re-analysis of the deposited data

How the results depend on the processing

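ASNS, GOT1 and PYCR1 kept their direction and their call under all 12 alternatives, and GOT2 under 10 of 12, the exceptions being the fits without either vehicle array. ALDH18A1 did not pass in any (0.01 to 0.16 log2 units), and GLUL passed in 1 of 12. The change of GOT1 exceeded that of GOT2 under every alternative. With all rows of the deposited file in the fit, 1162 probe sets were higher and 1271 lower, against 1930 and 2236 over annotated ones. The mean over a gene's probe sets gives no count of probe sets. Leaving out each array in turn gave 755 to 1899 higher and 811 to 2467 lower. Over all rows, partner enzymes had 0 falls, the shuttle list 3 and the arginine list 0, and the rise of KYAT3 and the fall of SLC25A11 were lost. With the brighter 50% of probe sets 2 amidotransferases rose, and under cyclic loess the arginine list had 0 falls and the fall of BCAT2 was lost. The regulators had 1 fall, that of SIRT4, under cyclic loess, median centring and the replicate block. Without each array in turn, called falls numbered 0 to 1 for the 6 genes, 0 to 3 for partner enzymes, 2 to 5 for the shuttle list, 2 to 6 for amidotransferases, 0 for the arginine list and 0 to 1 for regulators, and shuttle rises 0 to 1.

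Reversed signs occurred only in genes that were not called. Under cyclic loess they were GPT (-0.0077), OAT (0.0256) and MYC (0.0047), and under median centring GPT (-0.0141) and NIT2 (-0.025). Over the fits that left out 1 array, the differences ran from -0.0845 to 0.1583 for GPT, -1e-04 to 0.0521 for NIT2, -0.0177 to 0.3456 for PRODH, -0.1058 to 0.0057 for PRODH2, -0.1193 to 0.0786 for ALDH4A1 and -0.1113 to 0.3101 for ASPG. Labels give both groups replicates 1 and 2 but no pairing. Replicate deviations correlated at r = 0.12 between groups over probe sets, and the replicate block gave 2024 higher and 2312 lower calls and changed no call among the named genes other than SIRT4. With 2 arrays a group and no detection calls, small differences and dim signals are not resolved.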
